A study of Mus musculus with 72 samples.

Results

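The junctions described here are translocations with a long micro-homology, drawn from 60 LAM-HTGTS libraries of mouse neural progenitor cells. In this assay Cas9 makes a bait DSB, and sequencing from a primer next to it identifies the prey, the partner end found elsewhere in the genome. A junction was a member when its prey lay on one of chromosomes 1 to 19 other than that of the bait and when the bait and prey alignments shared at least 5 bp of the read. The 593366 junctions held 169098 translocations to other autosomes, and 22282 of these (13.2%) were members. A further 57398 translocations had an overlap of 2 to 4 bp, and 33918 were direct joins with neither overlap nor insertion. Single libraries held 133 to 37027 junctions (median 7764.5), 28 to 8194 translocations and 5 to 1232 members. The overlap length chose the members, so their length is a description here and was not tested against that of other junctions.

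Broken DNA ends can be joined by non-homologous end joining, which needs Xrcc4 and uses little or no shared sequence, or by alternative routes that pair short identical stretches exposed by resection of the ends. DNA polymerase theta (Pol θ) drives the best known of these routes: it anneals such micro-homologies and extends from them. ART558 inhibits the DNA synthesis of Pol θ. Aphidicolin slows replicative DNA polymerases and gives rise to recurrent DNA-break clusters (RDCs) in long neural genes.

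The Xrcc4/p53-deficient cells (45 libraries) were 1 line of ES cell-derived neural progenitors, Nxp010, of genotype NestinCre+Xrcc4-/-p53-/-, in which Xrcc4-dependent end joining was lost in controls and treated cells alike. The wild-type cells (15 libraries) were primary neural stem and progenitor cells of C57BL/6J embryos late in gestation. Aphidicolin was given at 0.5 µM over 72 h and lowered to 0.25 µM over the next 24 h, ART558 at 5 µM and then 2.5 µM over the same periods, and controls received the solvent DMSO. With the chromosome 6 bait, the Xrcc4/p53-deficient cells gave 2 DMSO, 3 ART558, 1 aphidicolin and 3 aphidicolin plus ART558 libraries. The chromosome 8 bait gave 3 libraries of each of these treatments, and the chromosome 12 bait gave 2 DMSO, 3 ART558, 2 aphidicolin and 3 aphidicolin plus ART558 libraries. All of these libraries are labelled theta collection, called the inhibitor experiment here. Libraries of the same line without that label added 7 DMSO libraries with the chromosome 6 bait, and 4 DMSO and 3 aphidicolin libraries with a chromosome 14 bait. Wild-type cells were treated with aphidicolin (3 libraries with the chromosome 6 bait, 4 with the chromosome 14 bait) or with aphidicolin plus ART558 (4 libraries with each bait), so they had no DMSO or ART558-alone libraries. The study's reporting summary speaks of technical repeats for the Xrcc4/p53-deficient cells and biological repeats for the wild-type cells, while a figure legend counts independent biological replicates for the former too, so p-values over them measure a spread that may be technical. All wild-type libraries carried 1 of 11 codes in the deposited names, and no Xrcc4/p53-deficient library carried it. The labels do not say what the code stands for, and genotype, cell source and code cannot be told apart.

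A single ART558 library with the chromosome 8 bait (replicate 3) had 28 translocations, under the minimum of 100, and entered no test of shares. The 7 wild-type libraries with the chromosome 6 bait stood apart from all others. Only 38.3% to 59.3% of their members were distinct junction sequences, counted by bait end and first 30 prey bases, against 77.4% to 92.5% with the chromosome 14 bait in wild-type cells and 78.1% to 100% in the 43 Xrcc4/p53-deficient libraries with at least 20 members. Their members lay on soft-masked repeats in 65.3% to 77.8% of cases, against a median of 28.9% over all libraries with enough members. In aphidicolin plus ART558 replicate 2 of this set, 39 of 81 members were 1 sequence with the 8 bp overlap TTGGAAAT and a bait-end loss of 4 bp, and the deposited file placed it at 34 positions on 14 chromosomes, all of them soft-masked. Differences that rest on these 7 libraries are therefore given also with each junction sequence counted once per library, here or in the account of the alternatives.

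The 4 guides are shown because they fix the cut, which Cas9 makes 3 bp from the PAM, and they are written as designed with positions in GRCm38/mm10. The PAMs are TGG for chromosomes 6 and 14 and AGG for chromosomes 8 and 12.
guide on chr6:70950106-70950125, minus strand: gagggttggaaatgctcgta
guide on chr8:59477701-59477720, minus strand: gtcgaccatatgctaatctt
guide on chr12:12994038-12994057, plus strand: attccgccaaccctcgagat
guide on chr14:83268830-83268849, plus strand: ggcttagttatagtaggggc

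The stretches from the end of the primer to the cut are shown for the chromosome 6, 12 and 14 baits because each overlap repeats a piece of them. Capitals mark the bases that lay inside the overlaps of at least 10% of the members of that bait, each position counted once per library.
bait on chr6:70950109-70950181, minus strand: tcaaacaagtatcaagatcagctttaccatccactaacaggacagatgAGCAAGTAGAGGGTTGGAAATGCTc
bait on chr12:12993950-12994054, plus strand: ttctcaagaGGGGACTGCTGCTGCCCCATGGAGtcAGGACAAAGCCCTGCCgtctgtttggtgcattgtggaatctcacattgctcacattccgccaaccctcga
bait on chr14:83268705-83268846, plus strand: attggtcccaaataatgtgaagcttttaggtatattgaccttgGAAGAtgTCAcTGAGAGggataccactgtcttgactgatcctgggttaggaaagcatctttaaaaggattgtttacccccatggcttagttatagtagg

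The capitals pool all libraries of a bait, and their place differs between treatments and cells. They formed 1 block with the chromosome 6 bait, 2 to 25 bp from the cut, which 71.4% of its members touched. With the chromosome 12 bait there were 2 blocks that lay far from the cut, at 55 to 70 bp (30.6% of members) and 73 to 96 bp (47.3%), and together they took in 72.0% of the members. The chromosome 14 bait had 3 short blocks between 83 and 99 bp from the cut, and only 31.4% of its members touched any of them.

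The last set of sequences shows 5 of the most recurrent prey sites of the chromosome 12 bait, read 5′ to 3′ along the joined strand, with the overlap in capitals.
prey on chr4:146480885-146480929, plus strand: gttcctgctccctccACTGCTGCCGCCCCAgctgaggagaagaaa
prey on chr10:66800009-66800054, plus strand: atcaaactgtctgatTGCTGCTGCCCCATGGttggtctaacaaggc
prey on chr1:132764614-132764657, minus strand: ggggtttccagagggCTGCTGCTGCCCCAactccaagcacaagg
prey on chr7:137468801-137468846, plus strand: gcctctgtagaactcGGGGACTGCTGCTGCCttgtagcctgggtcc
prey on chr5:28627631-28627681, minus strand: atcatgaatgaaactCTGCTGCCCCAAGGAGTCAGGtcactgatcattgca

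The sites on chromosomes 1, 7 and 10 match the bait over the whole overlap. The sites on chromosomes 4 and 5 each have 1 mismatch inside it.

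Members made up 2.92% to 19% of a library's translocations (median 12.8%) among the libraries with at least 100 translocations. The lowest was a library of wild-type cells with the combined treatment on the chromosome 6 bait, whose 40 members of 1372 translocations gave a 95% Wilson interval of 2.15% to 3.95%. The reads carry no molecular identifiers, so such intervals cover counting error only. With DMSO in Xrcc4/p53-deficient cells the share was 10.0% ± 0.56 (SD, n = 2) on chromosome 6, 13.4% ± 1.03 (n = 3) on chromosome 8, 18.0% ± 1.32 (n = 2) on chromosome 12 and 11.9% ± 1.47 (n = 4) on chromosome 14. Differences between baits were not tested.

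**Figure D1:**
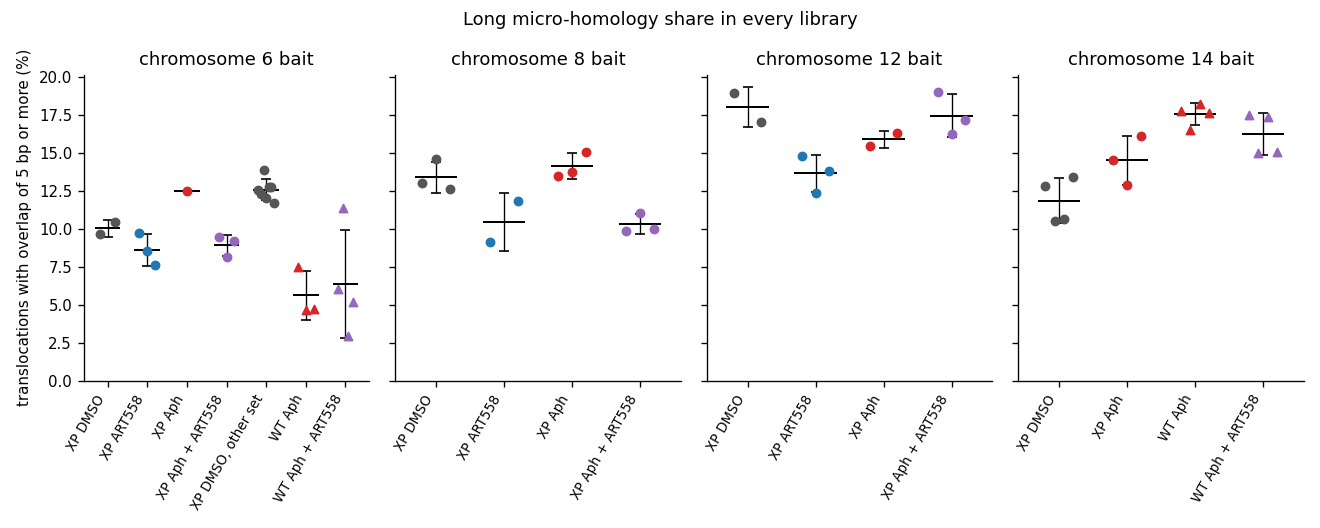
Share of translocations with an overlap of 5 bp or more (percent, y axis) in each library, by bait and treatment, with XP for Xrcc4/p53-deficient and WT for wild-type cells, and "other set" for the 7 DMSO libraries outside the theta collection. Points are libraries with at least 100 translocations, horizontal lines are means and bars are 1 SD. The ART558 libraries lie at 7.62% to 14.8%, each below the DMSO mean of its own bait.

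The share of long micro-homologies was lower with ART558 in Xrcc4/p53-deficient cells. For the chromosome 8 bait, the ART558 libraries stood at 9.10% and 11.8%, below the DMSO libraries at 12.6%, 13% and 14.6%. For the chromosome 12 bait, the ART558 values of 12.3%, 13.8% and 14.8% were all below the DMSO values of 17.1% and 18.9%. For the chromosome 6 bait the groups overlapped, at 7.62%, 8.51% and 9.69% in ART558 and 9.65% and 10.4% in DMSO. Averaged over the 3 baits, the share was lower by 2.91 percentage points (-2.91, two-sided exact permutation of libraries within baits, p = 0.002 with a lowest attainable value of 0.001, adjusted p = 0.014 over 7 comparisons of this share), and 8 of 8 ART558 libraries lay below the DMSO mean of their bait. Where the 2 groups share a code, on chromosomes 6 and 12, the difference was -2.90 (exact permutation p = 0.020). On chromosome 8 the code and the drug cannot be told apart. The small ART558 library moved the difference to -2.09 (permutation p = 0.0725) when it was counted, and a limit of 6 bp gave -1.43 (permutation p = 0.052).

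The spread between sets of control libraries was of a similar size. With the chromosome 6 bait, the 7 DMSO libraries outside the theta collection had a share of 12.6% ± 0.68, above both DMSO libraries of the inhibitor experiment (exact permutation p = 0.0278, lowest attainable), in the same line, bait and solvent. Their tail of overlaps of 8 bp or more was shorter, at 15.7% ± 2.38 of members against 22.1% ± 1.30 (permutation p = 0.0278). The main comparison uses only the DMSO libraries of the inhibitor experiment, and adding the other 7 gave a difference of -3.57.

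Against aphidicolin alone, the combined treatment gave 10.3% ± 0.66 (n = 3) with the chromosome 8 bait where aphidicolin gave 14.1% ± 0.85 (n = 3), and 8.92% ± 0.69 (n = 3) with the chromosome 6 bait where the only aphidicolin library gave 12.5%. With the chromosome 12 bait it was 17.5% ± 1.42 (n = 3) with ART558 and 15.9% ± 0.57 (n = 2) without. The mean difference of -1.92 points did not pass (exact permutation p = 0.060, adjusted p = 0.185), and 6 of 9 libraries lay below the aphidicolin mean. Without the chromosome 12 bait it was -3.67 (exact permutation p = 0.0125, lowest attainable), a choice made after the values were seen. These groups share a code only with the chromosome 6 bait, and for the chromosome 8 and 12 baits code and treatment cannot be told apart. Aphidicolin against DMSO gave +0.92 points over 4 baits (permutation p = 0.213, adjusted p = 0.373), with -2.11 for the chromosome 12 bait and positive values for the others, and -0.35 with identical overlaps only. Aphidicolin plus ART558 against ART558 gave +1.33 points (permutation p = 0.0793, adjusted p = 0.185). The baits gave 0.31 (chromosome 6), -0.15 (chromosome 8) and 3.81 (chromosome 12), the groups of the last sharing no code, and within shared codes the difference was -0.15.

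When only junctions with at least 1 bp of overlap were counted, members made up 17.1% ± 0.18 of them in DMSO and 16.9% ± 2.62 in ART558 with the chromosome 6 bait. The chromosome 12 bait gave 26.6% ± 2.45 and 23.5% ± 1.93. On this base the ART558 difference was -1.27 points (exact permutation p = 0.255), and none of the 5 comparisons passed. With overlaps identical in bait and prey only, the ART558 difference on this base was -2.51 (unadjusted permutation p = 0.003). Direct joins were a larger part of translocations in the ART558 libraries, at 31.6% against 20.1% with the chromosome 12 bait, 25.8% against 15.3% with the chromosome 6 bait and 23.9% against 12.5% with the chromosome 8 bait. This growth enters the denominator of the first share and not of the second, and it was not tested.

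The length of the overlaps fell off steadily above the limit. At 4 bp, just outside the rule, there were 12379 translocations (7.32%) with a median bait-end loss of 26 bp, and at 5 bp, just inside it, 7522 (4.45%) with a median loss of 28 bp. The median member had an overlap of 6 bp. There were 14497 members of 5 to 7 bp, 4449 of 8 to 10 bp and 3336 of 11 bp or more, and the longest had 38 bp. The tail belonged mainly to the chromosome 12 bait, which gave 2409 of the members of 11 bp or more. There, overlaps of 8 bp or more were 49.1% to 57.2% of members as treatment means, against 18.4% to 33.6% with the chromosome 6 and 8 baits in the inhibitor experiment.

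**Figure D2:**
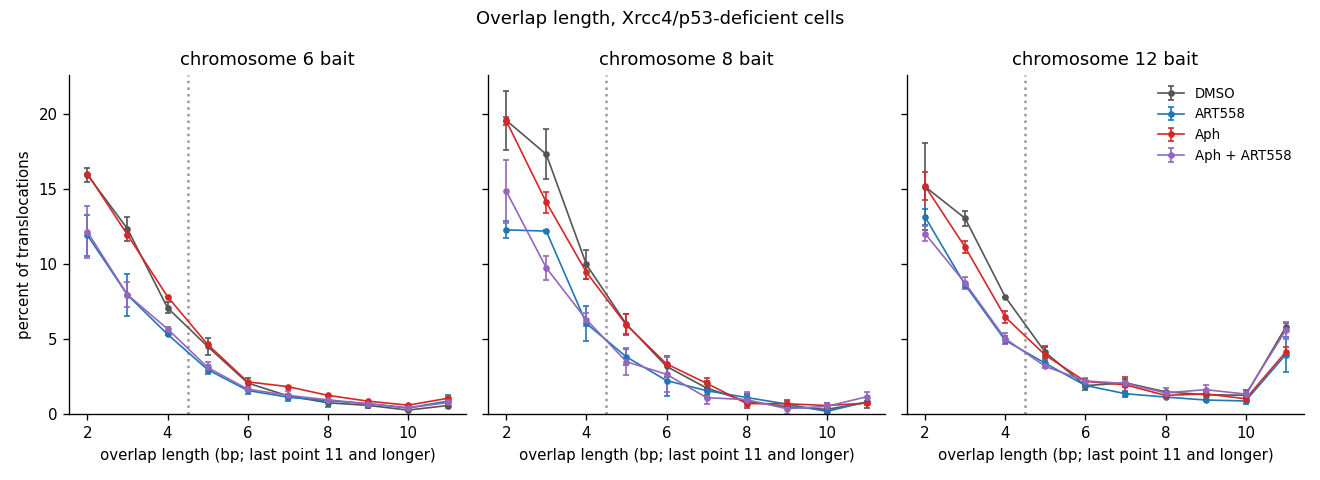
Percent of translocations (y axis) at each overlap length from 2 bp (x axis, last point 11 bp and longer) in Xrcc4/p53-deficient cells of the inhibitor experiment, by bait and treatment. Points are means over libraries, bars are 1 SD, and the dotted line marks the 5 bp limit. From 2 to 5 bp the lines of both treatments with ART558 run below those without it, and the last point, which pools all longer overlaps, is 3.98% to 5.80% with the chromosome 12 bait and 0.58% to 1.17% with the chromosome 6 and 8 baits.

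Of the single lengths, 5 bp passed with ART558 after adjustment. The fall was not tested between lengths. Overlaps of exactly 5 bp were 3.34% of translocations in ART558 and 5.04% in DMSO libraries (difference over baits -1.48 points, exact permutation p = 0.001, lowest attainable, adjusted p = 0.0219 over 35 tests of single lengths). They were 3.27% in aphidicolin plus ART558 and 5.06% in aphidicolin (-1.58, permutation p = 0.00125, lowest attainable, adjusted p = 0.0219). In the latter comparison the groups share a code only with the chromosome 6 bait, which has 1 aphidicolin library. At 6 and 7 bp the ART558 differences were -0.48 (permutation p = 0.097) and -0.33 points (permutation p = 0.081). At 8 bp the ART558 difference was +0.02 points (permutation p = 0.917), and for 11 bp and longer it was -0.50 points (permutation p = 0.263).

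Within the members, the part with 8 bp or more was larger with aphidicolin plus ART558 than with aphidicolin alone, by 6.57 points over 3 baits (exact permutation p = 0.005, adjusted p = 0.025 over 5 comparisons, 8 of 9 libraries above the aphidicolin mean). The difference no longer passed without the chromosome 12 bait, as given in the account of the alternatives. The part was 29.4% ± 2.54 against 19.5% ± 3.21 with the chromosome 8 bait. The chromosome 12 bait gave 57.2% ± 1.44 against 49.1% ± 0.14. With these baits the groups did not overlap but also shared no code. For the chromosome 6 bait, the only one with a shared code, it was 32.2% ± 3.55 against 30.5% in the single aphidicolin library (permutation p = 1.0). Counted as shares of all translocations, 5, 6 and 7 bp differed by -1.58, -0.38 and -0.48 points in this comparison (permutation p = 0.0375 at 7 bp, adjusted p = 0.263), 8, 9 and 10 bp by 0.04, -0.07 and 0.02, and 11 bp and longer by 0.53 (permutation p = 0.101). For ART558 against DMSO the difference was 5.51 points (permutation p = 0.097). It reached 11.5 points with the chromosome 6 bait and 9.10 with the chromosome 8 bait, and was -4.09 with the chromosome 12 bait.

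Members of the ART558 libraries had lost more of the bait end. Bait-end loss is the number of bases between the cut and the last bait base in the read, with the overlap counted as bait, and each library is given by the median of its members. With the chromosome 8 bait, the DMSO libraries had losses of 13, 15 and 17 bp and the ART558 libraries 41 and 46 bp. With the chromosome 6 bait the values were 8 and 10 bp in DMSO, and 19, 25.5 and 26 bp in ART558. For the chromosome 12 bait they were 58 and 60 bp, and 63, 64 and 66 bp. The groups did not overlap with any of the 3 baits. The difference averaged 16.1 bp (exact permutation p = 0.001, lowest attainable, adjusted p = 0.00313 over 5 comparisons), with 8 of 8 ART558 libraries above the DMSO mean of their bait, and within shared codes it was 9.92 bp (permutation p = 0.010, lowest attainable).

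**Figure D3:**
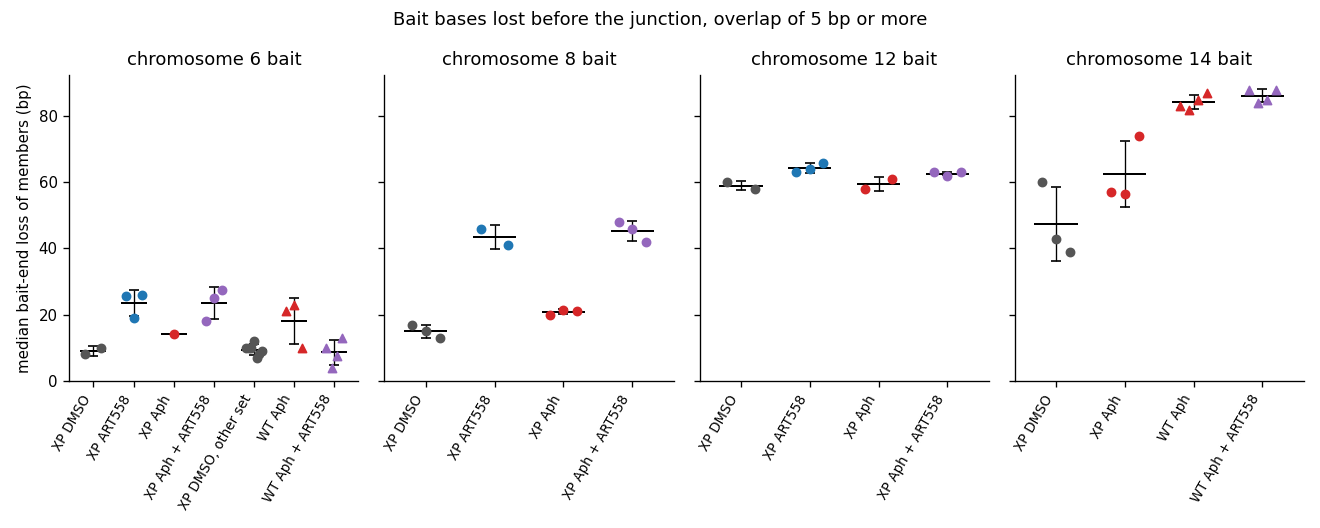
Median bait-end loss of members (bp, y axis) in each library with at least 20 members, by bait and treatment, with group names as in the plot of shares. Points are libraries, horizontal lines are means and bars are 1 SD. For the chromosome 8 bait the libraries with ART558 lie at 41 to 48 bp and those without it at 13 to 21.5 bp.

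The same direction was seen under aphidicolin. The combined treatment had losses of 42, 46 and 48 bp with the chromosome 8 bait where aphidicolin alone had 20, 21 and 21.5 bp, and 18, 25 and 27.5 bp with the chromosome 6 bait where the aphidicolin library had 14 bp. With the chromosome 12 bait it had 62, 63 and 63 bp against 58 and 61 bp. The mean difference was 12.4 bp (exact permutation p = 0.00125, lowest attainable, adjusted p = 0.00313, 9 of 9 libraries above). The within-code value is that of the chromosome 6 bait, 9.50 bp (permutation p = 0.250, lowest attainable), and for the other baits code and treatment cannot be told apart. Aphidicolin plus ART558 and ART558 alone differed by 0.06 bp (permutation p = 0.979).

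Aphidicolin alone also went with a larger loss than DMSO, by 6.63 bp over 4 baits (exact permutation p = 0.00681, adjusted p = 0.0113, 8 of 9 libraries above the DMSO mean). With the chromosome 8 bait the aphidicolin losses of 20, 21 and 21.5 bp were all above those of DMSO. With the chromosome 14 bait they were 56.5, 57 and 74 bp against 39, 43 and 60 bp, and the groups overlapped. The chromosome 12 means were 59.5 bp and 59.0 bp.

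The larger loss with ART558 was shared by joins outside the rule. For the chromosome 8 bait, the mean of library medians went from 12.2 bp in DMSO to 33.8 bp in ART558 for overlaps of 2 to 4 bp, and from 20.8 bp to 28.0 bp for direct joins. For the chromosome 12 bait, it was 31.8 bp and 59.7 bp for members of 5 to 7 bp, but 77 bp and 76 bp for members of 11 bp or more. These class values are a description and were not tested.

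Along the bait, the overlaps moved with the loss. For the chromosome 6 bait in Xrcc4/p53-deficient cells, 88.4% of the covered bases lay within 40 bp of the cut in DMSO and 57.8% in ART558, where bases 50 to 60 bp from the cut also passed the 10% limit of the capitals, as did those at 54 to 59 bp with aphidicolin alone. With the chromosome 8 bait, 82.0% of the bait bases covered by overlaps lay within 40 bp of the cut in DMSO and 76.5% in aphidicolin, but 40.9% in ART558 and 39.4% in aphidicolin plus ART558. With the chromosome 12 bait the base most often covered lay 85 bp from the cut under each treatment, in 22.0% to 28.0% of members, inside the stretch that reads CTGCTGCTGCCCCA. The chromosome 14 bait differed by cells: in wild-type cells 5.88% (aphidicolin) and 5.68% (aphidicolin plus ART558) of the covered bases lay within 40 bp, against 24.1% in Xrcc4/p53-deficient cells with aphidicolin and 37.5% with DMSO, where the base most often covered lay 14 bp from the cut (12.8% of members). These pooled values are a description.

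**Figure D4:**
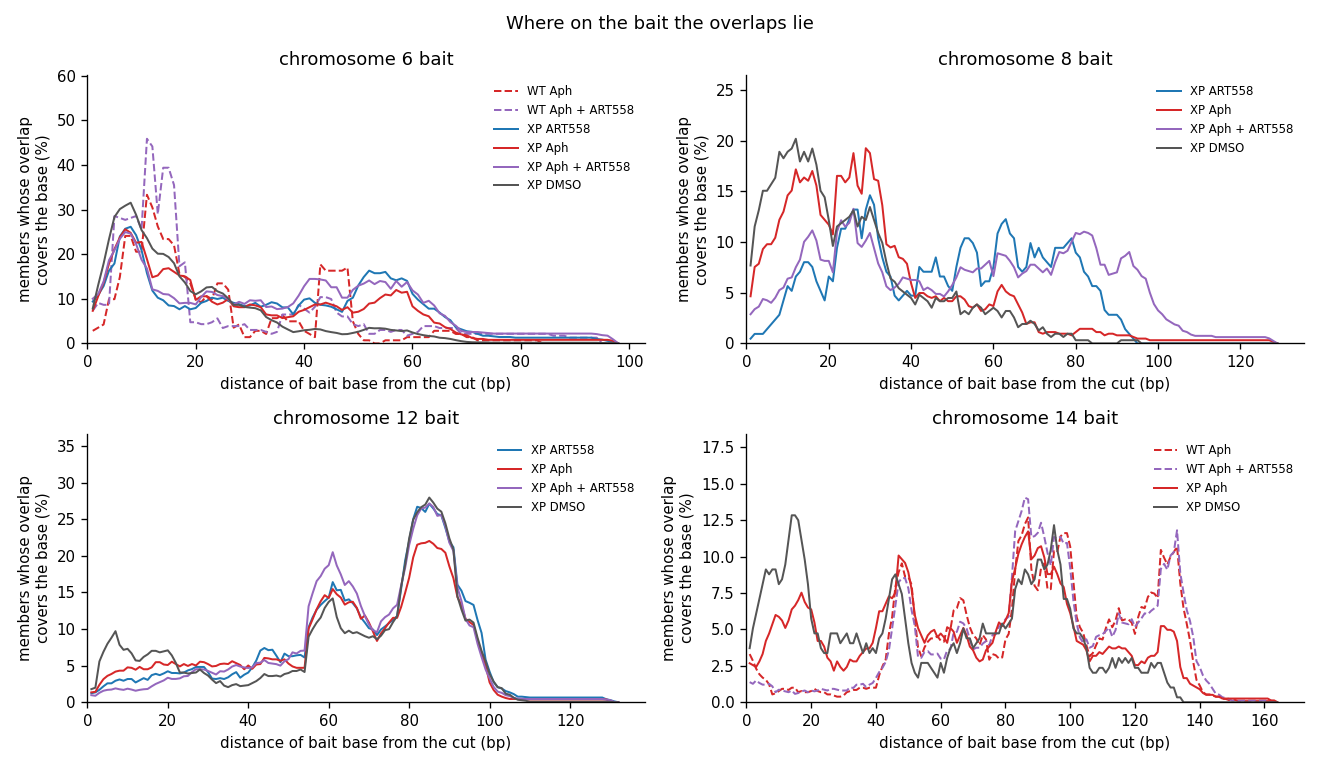
Percent of members whose overlap covers each bait base (y axis) by its distance from the cut (bp, x axis), by bait, cell type and treatment, each position counted once per library. Lines pool the libraries of a group, dashed for wild-type cells. The chromosome 12 bait shows the peak near 85 bp in all 4 treatments, and the chromosome 6 DMSO line includes the 7 libraries outside the theta collection.

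The most frequent overlap sequences were short and near the cut for the chromosome 6 bait and long and far from it for the chromosome 12 bait. Counted once per position and library, the 5 most frequent of the chromosome 6 bait were AAATG and TGCTC (191 each), GGAAA (185), GAAAT (177) and TGGAA (160). The chromosome 8 bait was led by ATTTT (66), AGGAA (47), CCTAA (36), AATCA (30) and GTGCA (22). The chromosome 14 bait was led by GAGAG (89), AAATAA (69), GGAAGA (59), GGAAA (45) and GAAAG (39). The chromosome 12 bait was led by CCCTGCC (112), GCCCTGCC (98), CTGCTGCTGCCCC (87), AGCCCTGCC (79) and CTGCTGCTGCCCCA (66), each seen in 10 of its 10 libraries. The overlap bases of this bait were 62.8% G or C, against 55.2% in its whole stretch, and the other baits had 36.8% to 44.4%.

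The overlap length comes from the alignments of the deposited files, which tolerate mismatches, so it was checked against the genome. Bait and prey stretches were identical over the whole overlap in 71.3% of members and had 1 mismatch in a further 23.9%. The identical part was 84.8% at 5 bp and 35.4% at 15 bp and longer. For the chromosome 12 bait it stayed between 68.6% and 76.7% from 8 to 14 bp, while with the chromosome 6 bait it was 38.1% at 10 bp. ATTTT of the chromosome 8 bait was identical in only 51.5% of its cases. Restricted to identical overlaps, the ART558 difference in the share was -3.05 points (exact permutation p = 0.001, lowest attainable) and that in the loss was 16.4 bp (permutation p = 0.001, lowest attainable).

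How often a bait word occurs in the genome followed its use only weakly. Across the 8-base words of a bait, Spearman's rho between the number of autosomal copies and the number of members covering the word was 0.21 to 0.42 for the 4 baits. Neighbouring words overlap and are not independent, so this is a description. The word used most by the chromosome 12 bait, GCTGCTGC, was covered by 26.9% of its members of 8 bp or more and ranked 4 by copies among 98 words.

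With the chromosome 12 bait, recurrence at single positions was most frequent among the longest overlaps. The members occupied 19785 positions (chromosome, base and strand), of which 446 were seen in at least 2 libraries and held 1257 members (5.64%). With the chromosome 12 bait, 29.0% of members of 11 bp or more lay at a position also hit in another library of that bait. The figure was 2.04% for overlaps of 8 to 10 bp and 1.46% for direct joins. For the chromosome 6 bait it was 9.77% for 11 bp or more and 6.08% for direct joins, and with the chromosome 8 and 14 baits it was 1.68% and 2.79% for 11 bp or more. Junctions with an insertion, which are not members, recurred in 12.9%, 3.64%, 4.75% and 23.6% of cases with the chromosome 6, 8, 12 and 14 baits, so the longest overlaps led only with the chromosome 12 bait. None of the members of 11 bp or more shared a position with a junction of another bait.

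**Figure D5:**
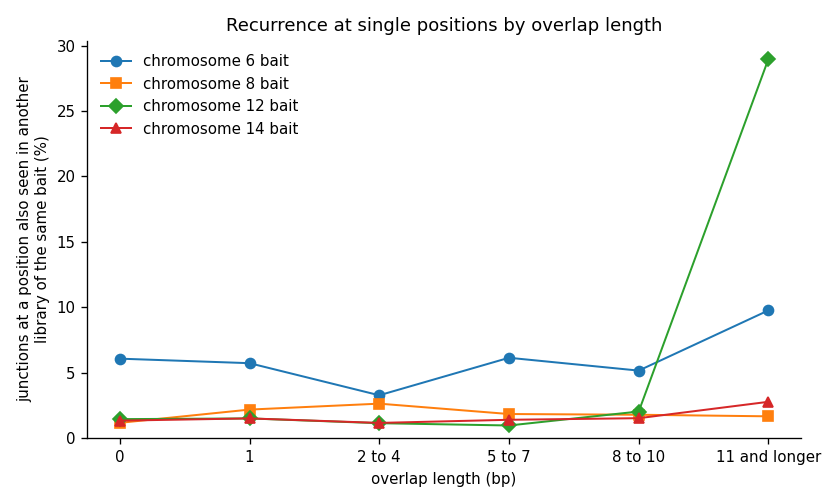
Percent of translocations at a position also seen in another library of the same bait (y axis) by overlap length (x axis, in bp), one line per bait, over all cell types and treatments. The chromosome 12 bait rises from 2.04% at 8 to 10 bp to 29.0% at 11 bp and longer.

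Exact copies of bait words were hit most often with the chromosome 12 bait. The 14-base word CTGCTGCTGCCCCA of the chromosome 12 bait has 116 exact sites on the other autosomes of GRCm38/mm10. A member lay at 59 of them (50.9%), and at 28 of them in 2 or more of the 10 libraries, with 130 members in all. Over all 14-base words of a bait, 507 of 2335 sites (21.7%) carried a member with the chromosome 12 bait, against 65 of 1633 (3.98%) with chromosome 6, 26 of 4514 (0.576%) with chromosome 8 and 71 of 4523 (1.57%) with chromosome 14. These are sums over words. Neighbouring words overlap, so a longer match and its members are counted at several of them. The number of libraries per bait differs, at 10, 23, 12 and 15, and no test was made.

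Of the 10 positions found in the most libraries, 7 belonged to the chromosome 12 bait. The site chr4:146480900 on the plus strand, in an intron of the lincRNA gene Gm26573, held 9 members in 8 libraries, all with a 15 bp overlap and a bait-end loss of 77 bp. The sites chr10:66800024 (8 members in 7 libraries, 16 bp) and chr1:132764642 (8 members in 7 libraries, 14 bp) lay outside annotated genes. The remaining ones were chr7:137468816 (16 bp), chr5:28627666 (21 bp, in an intron of the antisense gene 9530036O11Rik), chr6:88277964 (15 bp, in an intron of Eefsec, which encodes the elongation factor for selenocysteine) and chr16:59197604 (15 bp), each in 6 libraries. Every one of these 7 positions had a single distinct junction sequence, came with 2 codes, and was seen under all 4 treatments, except chr5:28627666 with 3. No other translocation lay at any of them.

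The other 3 recurrent positions were of other kinds. At chr2:98666654, in an exon of Gm10800 that is soft-masked as repeat, 10 members of 3 baits came from 9 libraries and 9 different sequences, with TGGAA as the most frequent overlap. At chr14:22766328, in an intron of Lrmda, 8 members of the chromosome 8 bait lay 24 bp from the expected cut of a guide-like site. This site, next to an NGG, matches the guide of this bait with 4 mismatches. At chr4:141560028, 7 members of the chromosome 6 bait lay 3 bp from the expected cut of a site with 5 mismatches to its guide. Their overlap was AGGAC. Both sites are printed with the PAM last and with capitals for the bases that differ from the guide.
chr14:22766302-22766321 and PAM, minus strand: AGTgaccatatgctaatctAggg
chr4:141560029-141560048 and PAM, minus strand: AGgggCtggaaatgcCcgtGagg
Within 500 bp of them lay 356 and 235 translocations of the matching bait, of which 34 (9.55%) and 22 (9.36%) were members. The shares of members over all translocations of these baits were 11.9% and 10.3%.

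Identical junction sequences in more than 1 library were few. Of 19875 member junction sequences, 375 were seen in at least 2 libraries, 169 of them within a single code and 206 across codes. Whether a repeated sequence arose in separate cells or was carried between libraries was not tested.

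RDC windows gained translocations under aphidicolin, members among them. Windows of 1 Mb were centred on 102 autosomal RDC positions, those the study lists with a replication-timing class. The study works with a larger set of RDCs, and those not used here count as elsewhere. That list rests on breaks in aphidicolin-treated neural progenitor cells, so its direction here is not independent evidence. In Xrcc4/p53-deficient cells, 7.47% of members lay inside the windows with aphidicolin and 3.16% with DMSO as means over 4 baits, a difference of 4.30 points (exact permutation p = 0.000139, lowest attainable, adjusted p = 0.000417 over 3 comparisons, 9 of 9 libraries above the DMSO mean). All translocations went from 3.96% to 8.89% and direct joins from 4.35% to 6.42%. The rise of members was not tested against that of all translocations. For the chromosome 8 bait the aphidicolin libraries lay between 8.09% and 9.66% and the DMSO libraries between 0.917% and 6.74%. The groups did not overlap with any of the 4 baits, but counts were small: 5 of 287 members lay inside in DMSO with the chromosome 14 bait and 52 of 816 in aphidicolin.

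With ART558 added to aphidicolin the share of members inside the windows was lower, at 4.65% against 7.96% over 3 baits (-3.30 points, exact permutation p = 0.005, adjusted p = 0.0075, 9 of 9 libraries below the aphidicolin mean). Without the aphidicolin library of the chromosome 6 bait it was -1.94 (permutation p = 0.035), and with windows of 2 Mb -2.92 (permutation p = 0.0525). The groups share a code only with the chromosome 6 bait, where the difference was -6.04 (permutation p = 0.250, lowest attainable), and for the other baits code and treatment cannot be told apart. All translocations were lower inside as well, at 5.37% against 8.70%, and the fall of members was not tested against theirs. With the chromosome 6 bait, 28 of 940 members were inside with the combined treatment and 46 of 514 in the aphidicolin library, and with the chromosome 8 bait 52 of 891 and 56 of 647. The chromosome 12 groups overlapped, at 3.62% to 6.01% and 5.08% to 7.24%. In wild-type cells the same comparison gave -0.66 points (permutation p = 0.452), with 6 of 278 and 6 of 183 members inside for the chromosome 6 bait and 78 of 1975 and 74 of 1647 for the chromosome 14 bait. As means over these baits, members inside were 2.87% with the combined treatment and 3.54% with aphidicolin. All translocations went the other way, at 5.36% and 3.82%, and so did direct joins, at 6.08% and 3.88%. The shares of all translocations and direct joins were not tested.

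In none of the 6 groups did the share of long micro-homologies inside the windows differ from that elsewhere after adjustment, which groups of 6 or 7 libraries could hardly reach, their lowest attainable unadjusted p being 0.03125 and 0.0156. In the 9 aphidicolin libraries of Xrcc4/p53-deficient cells they made up 11.6% of translocations inside and 14.8% outside, lower inside in 7 of 9 libraries (-3.14 points, exact sign-flip permutation p = 0.0430, adjusted p = 0.129 over 6 groups). With windows of 2 Mb the difference was -1.72 (permutation p = 0.117). In wild-type cells with aphidicolin plus ART558 they made up 7.08% and 11.6%, lower inside in 7 of 7 libraries (-4.47 points, permutation p = 0.0156, lowest attainable, adjusted p = 0.0938), and with 2 Mb windows the difference was -2.31 (permutation p = 0.0938). With DMSO the difference was -0.04 points (n = 11, permutation p = 0.945), and with wild-type aphidicolin +0.56 points (n = 6, permutation p = 0.781). ART558 alone gave -0.77 points (n = 6, permutation p = 0.688), and the combined treatment in Xrcc4/p53-deficient cells -2.03 (n = 8, permutation p = 0.0938). With each junction sequence counted once the wild-type differences were -3.87 (permutation p = 0.03125) and 0.40.

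The 39 windows of constant-timing regions (CTR) held 372 members among 3504 translocations (10.6%), and the 63 windows of timing-transition regions (TTR) held 693 among 5478 (12.7%), against 13.2% over all translocations. These shares pool libraries of different baits and treatments, as do those of single windows, and were not compared by a test. Each window held at least 1 member. The most members lay at Auts2, which encodes a regulator of transcription in neurons (23 of 252 translocations, in 14 libraries), and at Naaladl2 (23 of 161, in 14 libraries). Ptprm, a receptor tyrosine phosphatase gene, had 20 of 80 (25.0%), and Dlg2, which encodes a postsynaptic scaffold protein, 18 of 85 (21.2%). Adgrv1, an adhesion G protein-coupled receptor gene, had 18 of 95 (18.9%). The netrin receptor gene Dcc had 18 of 142 and the formin gene Fhod3 18 of 135. The synaptic scaffold gene Magi2 had 16 of 155, the alpha-catenin gene Ctnna2 17 of 115, and Ptprt, a further receptor tyrosine phosphatase gene, 17 of 167. Nrg3 (16 of 141) and Grip1 (16 of 117) tied with Magi2 for the last place. These windows were chosen by their member count, so their rank is a description. At Adgrv1 11 of the 18 members had 8 bp or more, and at Ptprt 1 of 17.

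In wild-type cells none of the measures compared between aphidicolin with and without ART558 passed its test when all junctions were counted. With the chromosome 14 bait the aphidicolin libraries stood at 16.5%, 17.6%, 17.8% and 18.2% and the libraries with ART558 as well at 15%, 15.1%, 17.4% and 17.5%. For the chromosome 6 bait the values were 4.66%, 4.73% and 7.50%, and 2.92%, 5.15%, 6.06% and 11.4%. The difference over both baits was -0.28 points (exact permutation p = 0.839, 6 of 8 libraries below the aphidicolin mean). With each junction sequence counted once the chromosome 6 shares were 5.52% ± 1.17 and 5.35% ± 0.60, and the highest library of the combined treatment stood at 6.16%. Among junctions with at least 1 bp of overlap, the difference was -0.79 (permutation p = 0.790), but -3.39 with each sequence once (unadjusted permutation p = 0.0167). The part with 8 bp or more differed by -0.40 points, or by -2.68 with each sequence once. The bait-end loss differed by -3.69 bp (permutation p = 0.224), or by -3.04 with each sequence once. The baits went in opposite directions, by -9.38 bp with chromosome 6 and by 2.00 bp with chromosome 14, with 82 to 88 bp in all 8 libraries of the chromosome 14 bait.

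Xrcc4/p53-deficient and wild-type cells differed in opposite directions with the 2 baits under aphidicolin. With the chromosome 14 bait the Xrcc4/p53-deficient libraries had 12.9%, 14.5% and 16.1%, all below the wild-type libraries (exact permutation p = 0.0286, lowest attainable with 3 against 4 libraries). These Xrcc4/p53-deficient libraries lie outside the theta collection and the wild-type ones inside it, and with the chromosome 6 bait the DMSO libraries of the same line differed by 2.53 points between the collections, so cells and collection cannot be told apart. With the chromosome 6 bait the only Xrcc4/p53-deficient library, at 12.5%, lay above the 3 wild-type libraries. The mean over baits was +1.91 points (permutation p = 0.450), or 1.99 with each junction sequence once, and under aphidicolin plus ART558, with the chromosome 6 bait only, +2.55 points (permutation p = 0.286, 3 of 3 libraries above). After each junction sequence was counted once, the last difference was 3.59 points (permutation p = 0.0286, lowest attainable). In wild-type cells the chromosome 14 members had also lost more of the bait end, 84.3 bp ± 2.22 against 62.5 bp ± 9.96.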

How the data were processed

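LAM-HTGTS junctions of 60 libraries were analysed. Repli-seq, GRO-seq and whole-genome data were not used here. The deposited tables give, per the file headers, chromosome and read positions as plain coordinates (unit: other), 1 row per junction and 1 file per library, with no normalization. The authors demultiplexed and trimmed the reads with TranslocProcess, aligned them to GRCm38/mm10 with Bowtie2 and joined and filtered bait and prey with TranslocWrapper. Versions are not given in the sources used here. The table of ART558 replicate 1 on chromosome 6 stops inside its last line. This 1 row was left out, and further junctions of that library may be missing. Without that library the ART558 minus DMSO difference in the share was -3.09 (permutation p = 0.00167).

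Overlap length was the bait end minus the prey start on the read plus 1. Members and lists were chosen with earlier results of these data known. The bait sequence on chromosome 8 is not reported here. Overlaps were checked against the genome with samtools 1.23.1 and genes taken from GENCODE M21. RDC positions were the 107 that the study's source data give with a replication-timing class (102 autosomal), fewer than its full set. Named were the 10 positions in the most libraries, the 10 RDC windows with the most members (1 of 3 tied for the last place) and, per bait, the 5 most frequent overlaps.

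Groups followed the labels. Shares needed 100 translocations, loss, tail and RDC shares 20 members, and inside-outside differences 50 translocations inside windows. Libraries were permuted within baits (two-sided, exact, baits weighted equally) or had signs flipped (100000 resamples from 10 libraries up), with Benjamini-Hochberg adjustment within each measure. The scripts were tested on simulated data. Python 3.11.15, NumPy 2.4.6, pandas 2.3.3, SciPy 1.17.1 and Matplotlib 3.10.9 were used. Alternatives were other overlap limits, single counting of positions, other windows, replicate blocks, shared codes and leaving out libraries. Identical overlaps, single junction sequences and leaving out the chromosome 12 or chromosome 6 bait were added after seeing the data.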

Additional observations from a re-analysis of the deposited data

Results flagged for a closer look

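The effects below ran in opposite directions with different baits, every library of the first group lying on one side of the second group with one bait and on the opposite side with the other. The difference between the baits was not tested in any of these cases, and the chromosome 6 bait has only 1 aphidicolin library of Xrcc4/p53-deficient cells.

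Aphidicolin minus DMSO in the share of long micro-homologies was 2.42 percentage points with the chromosome 6 bait and -2.11 with the chromosome 12 bait. The single aphidicolin library of the chromosome 6 bait, at 12.5%, lay inside the range of the 7 DMSO libraries outside the theta collection, 11.7% to 13.9%, so this direction depends on the control set. In the same comparison, the part of members with 8 bp or more differed by 8.49 points with the chromosome 6 bait and by -5.72 with the chromosome 12 bait. Aphidicolin plus ART558 minus aphidicolin, counted among junctions with at least 1 bp of overlap, was -3.01 points with the chromosome 6 bait and 4.51 with the chromosome 12 bait. Xrcc4/p53-deficient minus wild-type cells under aphidicolin was 6.84 points with the chromosome 6 bait and -3.02 with the chromosome 14 bait. Counted once per junction sequence, the wild-type chromosome 6 libraries with aphidicolin stood at 4.49% to 6.79%, still below the 12.5% of the Xrcc4/p53-deficient library.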

How the results depend on the processing

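A result counts as past the threshold here at an unadjusted permutation p under 0.05. Of 227 alternative values, apart from those that leave out a library, 177 kept direction and side of the threshold, 10 no longer passed, 15 newly passed and 25 changed direction. Where a value changed, the cause was not tested. The loss differences of ART558 against DMSO and of aphidicolin against DMSO, and the aphidicolin difference in members inside RDC windows, changed under none of the alternatives run.

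For ART558 minus DMSO the share difference was -1.43 with 6 bp or more (permutation p = 0.052) and -2.09 with all libraries (permutation p = 0.0725). For aphidicolin minus DMSO it was -0.35 with identical overlaps and 1.93 without the chromosome 12 bait. For aphidicolin plus ART558 minus aphidicolin it was -2.37 with overlaps of 0 to 10 bp, -1.93 without positions seen in 2 or more libraries, -4.17 with 4 bp or more and -3.67 without the chromosome 12 bait, all of which passed. Against ART558 alone the combined treatment gave 1.67 without recurrent positions, 1.46 with 6 bp or more and 1.18 with identical overlaps, which passed, and -0.15 within shared codes. The wild-type difference was 0.016 with each position once and 0.13 with identical overlaps. Between the cell types under the combined treatment it was 3.59 with each sequence once.

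The part of members with 8 bp or more, for ART558 minus DMSO and aphidicolin minus DMSO, was 10.3 and 4.13 without the chromosome 12 bait, and both passed. For the combined treatment minus aphidicolin it was 5.79 without that bait (permutation p = 0.0625) and 1.65 within shared codes, and minus ART558 it was -0.38 within shared codes. In wild-type cells it was 1.69 with each position once, 1.53 for 7 bp or more and 0.90 with identical overlaps.

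Among junctions with at least 1 bp, identical overlaps gave -2.51 for ART558 minus DMSO (permutation p = 0.003), -0.97 for aphidicolin minus DMSO, 0.16 for the combined treatment minus aphidicolin (0.049 with each position once) and 1.87 minus ART558. The last was 2.52 without recurrent positions and -0.50 within shared codes. In wild-type cells the values were 0.30 without recurrent positions, 0.13 with identical overlaps and -3.39 with each sequence once.

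The loss difference between the combined treatment and aphidicolin was 9.50 bp within shared codes (permutation p = 0.250). Against ART558 it was -0.075 with means, -0.14 with the overlap counted as prey, -0.56 with identical overlaps and -0.44 with each sequence once. The wild-type difference was 2.00 bp without the chromosome 6 bait. Members inside RDC windows, combined treatment minus aphidicolin, differed by -2.92 with 2 Mb windows (permutation p = 0.0525) and -6.04 within shared codes, and in wild-type cells by 0.40 with 0.5 Mb windows and 0.69 with each sequence once. Inside minus outside, DMSO gave 0.61 and 0.19 with 0.5 and 2 Mb windows, aphidicolin -1.72 with 2 Mb, wild-type aphidicolin -0.83 with 0.5 Mb and the wild-type combined treatment -2.31 with 2 Mb.

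Same-numbered libraries of the inhibitor experiment deviated together in no regular way (correlations of -0.55 to 0.46 for ART558 and DMSO, for example). For ART558 and DMSO the pairs were positive with the chromosome 6 and 8 baits and negative with chromosome 12. Deviations from a group mean mirror each other in groups of 2 libraries, so this check can hardly show whether libraries were paired. With the replicate block the share differences were -2.91 for ART558 minus DMSO (permutation p = 0.0625), 1.14 for aphidicolin minus DMSO, -1.82 for the combined treatment minus aphidicolin, 1.55 minus ART558 and -0.25 in wild-type cells. The block turned the aphidicolin difference between cell types to -1.01.

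Leaving out 1 library at a time kept 394 of 440 values. The share differences ran from -3.36 to -2.46 for ART558 minus DMSO, 0.42 to 1.15 for aphidicolin minus DMSO, -2.18 to -1.11 for the combined treatment minus aphidicolin (passing without replicate 1 of either group on chromosome 12), 0.88 to 1.78 minus ART558 (passing without ART558 chromosome 6 replicate 1 or chromosome 8 replicate 2), -1.11 to 0.29 in wild-type cells (positive without combined replicate 3 or aphidicolin replicate 1 on chromosome 6), and 1.40 to 4.22 between cell types under the combined treatment. Under aphidicolin the cell types ranged from -3.02, without the single chromosome 6 library, to 2.37. For 8 bp or more the ranges were 4.07 to 6.94 (6.75 and past the threshold without ART558 chromosome 12 replicate 2), -0.61 (without the aphidicolin chromosome 6 library) to 2.11, 6.08 to 9.03, 0.90 to 3.76 and, in wild-type cells, -6.23 to 2.56. Among junctions with at least 1 bp they were -1.95 to -0.59, -0.16 to 1.44, -0.67 to 1.11, 1.37 to 2.73 (passing without the same 2 ART558 libraries as above) and -2.55 to 0.88. Loss ranges were 15.3 to 16.9, 5.19 to 8.21, 11.7 to 13.8, -0.78 to 0.97 and -5.69 to -2.44. Members inside windows ranged from 3.82 to 4.68 for aphidicolin, from -3.66 to -1.94 for the combined treatment (-1.94 without the aphidicolin chromosome 6 library) and from -1.33 to 0.063 in wild-type cells. Inside minus outside ran from -0.45 to 0.39 with DMSO, -2.43 to -0.19 with ART558, -3.79 to -2.51 with aphidicolin, -2.70 to -1.47 with both, -0.18 to 1.54 in wild-type aphidicolin and -4.85 to -3.43 in the wild-type combined treatment. The aphidicolin value no longer passed without chromosome 14 replicates 1 or 2 or without any 1 of the chromosome 8 and 12 libraries. The combined treatment passed without chromosome 8 replicate 3.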

Other observations

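Over the 58 libraries with enough members, a median of 47.1% of members and 46.2% of direct joins fell inside a protein-coding gene body, with the members higher in 36 of 58 libraries. For soft-masked bases the medians were 28.9% and 28.4%, and members were higher in 32 of 58. Members on the plus strand made up 42.0% to 60% of a library's members (median 48.2%).

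The 4 busiest stretches of 100 kb over all translocations were chr2:98600000-98699999 (2821 translocations), chr14:19400000-19499999 (2191), chr9:3000000-3099999 (1070) and chr9:35300000-35399999 (592). Between 88.2% and 95.9% of the translocations there lay on soft-masked bases. Members were 9.35% to 11.5% of the translocations in these stretches, which were chosen after their counts were seen.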
